A study of Mus musculus with 4 samples.

Results

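The genes described here govern how a mammalian cell senses, takes up, moves and exports cholesterol: Srebf1, Srebf2, Scap, Insig1, Insig2, Stard4, Npc1, Abca1 and Abcg1. They were chosen by name, as spots that the platform annotation assigns to these symbols, and the spots of a gene were averaged on each array. All 9 were found, on 17 spots, among 19088 genes measured on 45220 spots. Their transcripts were compared between mouse LMEB3 cybrid fibroblasts with mitochondria of BALB/cJ mice (mtBALB, the mutant line) and LMEB3 cybrids with mitochondria of C57BL/6J mice (mtB6, control). A cybrid joins the mitochondria of a donor to the nucleus of a recipient line, so both lines share the LMEB3 nuclear background. Cultures of both lines were at passage 3 and grew in medium with 4.5 g/L glucose and 10% fetal bovine serum. The series title calls the cells independent clones, and the labels do not say how many clones stand behind the replicates. There were 4 two-colour arrays, each with RNA of 1 mtBALB and 1 mtB6 culture. The mtBALB RNA was in Cy3 on replicates 1 and 3 and in Cy5 on replicates 2 and 4.

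SREBPs are transcription factors made as membrane proteins of the endoplasmic reticulum. Srebf1 and Srebf2 encode them, Scap escorts them to the Golgi for cleavage when sterols are scarce, and the Insig proteins hold Scap back when sterols are plentiful. The freed SREBP fragments raise the genes of sterol and fatty acid synthesis and of lipoprotein uptake, while the oxysterol receptor LXR raises the exporters Abca1 and Abcg1. Fibroblasts in culture draw cholesterol both from their own synthesis and from serum lipoproteins.

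The values are the authors' deposited log ratios between the lines. Their base is not stated and was taken as 2, on which the fold ratios below depend. The labels do not say which line is the numerator, so the sign of a value does not tell which line had more of a transcript. A ratio from the RNA of whole cultures cannot tell fewer expressing cells from less RNA per cell. A spot is called dim on an array where at least 3 spots of that array share its exact value, as ratios of low signals would. The signals themselves were not available, so low signal is an inference from shared values. Of the 17 spots, 11 were dim on no array and 6 were dim on 1 or more. Stard4 and Abcg1 had no spot free of this. Of all 19088 genes, 9774 had a spot that was never dim. Among markers these were 8 of 12 measured fibroblast genes, 3 of 8 macrophage, 3 of 7 adipocyte and 0 of 7 hepatocyte genes. The fibroblast marker Vim was not among them and the macrophage marker Tyrobp was. The counts also depend on how many spots a gene has. Replicates 1 and 3 stood apart in interferon-stimulated genes, whose median ratio was 1.54, -0.82, -2.23 and -0.01 on replicates 1 to 4, so means without one of those arrays are given below where they differ most.

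The windows from 250 bases before to 50 after the annotated start are shown for Insig1, Srebf2, Srebf1 and Abca1. They hold letters known from the sterol control of such genes. The windows of Insig2 and Scap and the other windows of Srebf1 are not shown. Whether the letters have any part in the ratios below was not tested. The sequences are from RefSeq on GRCm38.p6, 5′ to 3′ on the gene's strand. Capitals mark CACGTG (the E box), CCAAT (the NF-Y box) on either strand, CACNCCAC and TCACCCCA (letters of sterol regulatory elements) and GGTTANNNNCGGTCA (letters of an LXR element). The Insig1 window lies at chr5:28071162-28071461, plus strand, that of Srebf2 at chr15:82147019-82147318, plus strand, the third annotated window of Srebf1 at chr11:60210422-60210721, minus strand, and that of Abca1 at chr4:53159846-53160145, minus strand.
Insig1: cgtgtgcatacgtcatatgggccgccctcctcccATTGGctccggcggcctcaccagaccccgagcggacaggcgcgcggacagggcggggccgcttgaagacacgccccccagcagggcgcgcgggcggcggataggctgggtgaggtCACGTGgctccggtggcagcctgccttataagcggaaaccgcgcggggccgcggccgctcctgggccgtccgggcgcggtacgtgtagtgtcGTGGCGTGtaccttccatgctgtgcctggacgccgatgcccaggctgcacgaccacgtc
Srebf2: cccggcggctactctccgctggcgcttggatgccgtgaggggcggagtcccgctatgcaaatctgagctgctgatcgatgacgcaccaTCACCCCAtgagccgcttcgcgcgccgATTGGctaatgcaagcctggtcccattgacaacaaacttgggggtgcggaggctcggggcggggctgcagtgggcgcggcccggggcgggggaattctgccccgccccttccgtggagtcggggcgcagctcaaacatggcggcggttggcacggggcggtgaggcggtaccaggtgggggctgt
Srebf1: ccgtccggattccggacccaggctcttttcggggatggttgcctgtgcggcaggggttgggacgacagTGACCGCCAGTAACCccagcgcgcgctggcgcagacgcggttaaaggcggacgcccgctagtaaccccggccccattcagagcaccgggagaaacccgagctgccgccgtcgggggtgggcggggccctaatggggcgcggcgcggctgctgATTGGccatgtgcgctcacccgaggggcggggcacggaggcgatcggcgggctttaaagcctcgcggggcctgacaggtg
Abca1: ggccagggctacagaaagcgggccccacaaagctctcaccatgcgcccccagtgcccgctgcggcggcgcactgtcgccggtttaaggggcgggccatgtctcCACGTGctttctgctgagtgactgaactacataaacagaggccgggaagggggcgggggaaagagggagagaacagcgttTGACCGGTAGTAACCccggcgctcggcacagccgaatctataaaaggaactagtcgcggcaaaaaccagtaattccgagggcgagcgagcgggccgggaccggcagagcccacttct
The Insig1 window held a CCAAT box on the minus strand at -216, a CACGTG box at -101 and CACNCCAC on the minus strand at -9, counted in bases from the start. The Srebf2 window held TCACCCCA at -162 and a CCAAT box on the minus strand at -135. The Srebf1 and Abca1 windows held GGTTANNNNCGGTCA on the minus strand at -182 and -67. The Srebf1 window also had a CCAAT box on the minus strand at -30, and Abca1 had a CACGTG box at -147. Searched on both strands, CACGTG was in 7.15% of 32851 promoter windows, CCAAT in 37.4%, CACNCCAC in 6.24%, TCACCCCA in 1.56% and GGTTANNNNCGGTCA in 0.0122% (4 windows). The pair of half-sites AGGTCA spaced by 4 bases was in none of the 11 member windows and in 0.0152% of all windows. TCACCCCA and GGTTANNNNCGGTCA were chosen after the windows had been read. A match is a description of letters and not a measured binding site. CCAAT was in 14 of the 14 cholesterol synthesis genes that had a window, against 41.1% of 27025 genes in the promoter table. CACNCCAC was in 1 of those 14, or 7.14%, against 7.12% of genes in the table.

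No member differed between the lines beyond the spread between pairs. In limma, with a mean ratio and a dye term per gene, 0 of 9 members passed an adjusted p of 0.05, against 0% of all genes. At an unadjusted p under 0.05 there were also 0 of 9, against 3.64% of all genes. All 9 members had an adjusted p of 0.9997 in limma. Their 95% intervals all included 0, with half-widths between 0.15 for Npc1 and 1.17 for Abca1 on the log2 scale. The median of the members' mean ratios was 0.09 and that of all genes was -0.0010. Gene means given with an array left out are the mean term of this fit, which weighs both dye orientations (mtBALB in Cy3 or in Cy5) equally. They are not plain means of the arrays left. In such fits the members' median was 0.05 without replicate 1 and -0.02 without replicate 4. Of the members, 6 had a positive mean, against 49.5% of all genes, and 1 was positive on all 4 arrays, against 4.37% of all genes. None was negative throughout, against 4.65% of all genes, and none alternated in sign with the dye, against 21.3% of all genes. The dye term had an unadjusted p under 0.05 for 0 of 9 members, against 8.98% of all genes. The members differed more in spread than in mean: the SD over arrays was 0.04 for Npc1 and 1.04 for Abca1.

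**Figure D1:**
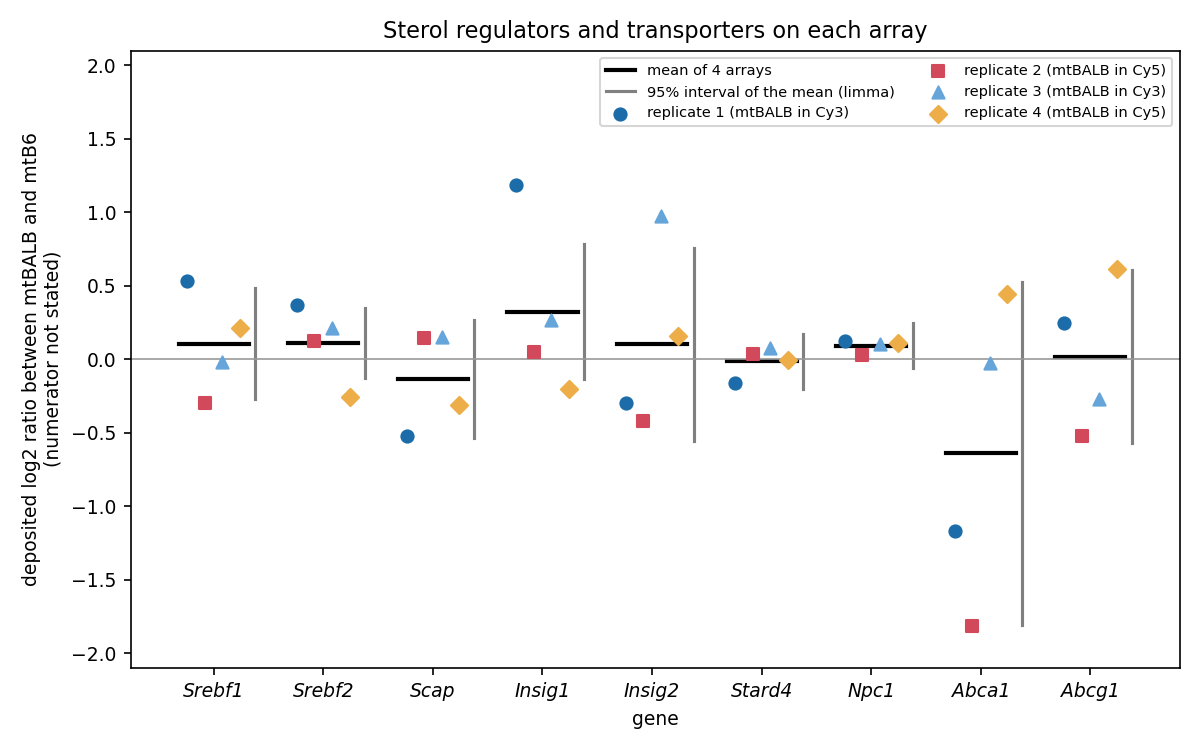
Deposited log2 ratio between mtBALB and mtB6 (vertical axis; numerator not stated) for the 9 sterol genes. Points are the 4 arrays, black bars the means and grey lines the 95% intervals of limma. Every interval crosses 0, and Abca1 and Abcg1 have arrays on both sides of 0.

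Insig1, the sterol-regulated anchor of Scap and itself an SREBP target, had the smallest unadjusted p of the members. Its log2 ratio was 1.18, 0.05, 0.27 and -0.20 on replicates 1 to 4. Replicate 1 was far above the others, at a 2.27-fold ratio, and replicate 4 lay on the other side of 0. The mean was 0.32 ± 0.60 (SD, n = 4), with a 95% interval of -0.13 to 0.78 and an unadjusted p = 0.124 in limma. The SD exceeded that of 93.6% of the 9774 genes with a spot that was never dim. Both spots of Insig1 were dim on no array and had the same sign on each of the 4 arrays. Their ratios were 1.46 and 0.91 on replicate 1, 0.08 and 0.02 on replicate 2, 0.47 and 0.06 on replicate 3, and -0.31 and -0.10 on replicate 4. The mean of Insig1 was 0.10 without replicate 1 and 0.55 without replicate 3. Without replicate 3 its unadjusted p was 0.0041 in limma, from 1 residual degree of freedom per gene, and it did not pass the adjusted threshold. Its dye term was 0.40 (unadjusted p = 0.0728, adjusted p = 0.571 in limma), with the arrays that had mtBALB in Cy3 the higher. The dye terms of its spots were 0.54 and 0.26 (unadjusted p = 0.0374 and 0.155 in limma).

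Insig2, the second anchor of Scap, which is not an SREBP target, had another pattern. Its log2 ratio was -0.30, -0.42, 0.98 and 0.16 on replicates 1 to 4. Replicates 1 and 2 were below 0 and replicate 3 was far above, at a 1.97-fold ratio. The mean was 0.10 ± 0.63 (SD, n = 4), with a 95% interval of -0.55 to 0.76. Its 2 spots, both never dim, agreed in sign on 3 arrays, with 1.07 and 0.89 on replicate 3. They parted on replicate 4, at -0.11 and 0.42. The mean was 0.42 without replicate 1 (unadjusted p = 0.0450 in limma, not past the adjusted threshold) and -0.22 without replicate 3.

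Within each array, Insig1 minus Insig2 was 1.48, 0.47, -0.71 and -0.36 on replicates 1 to 4. The paralogs thus parted by more than 1 log2 unit on replicate 1 only, and in opposite directions on the first and second pair of arrays. The mean difference was 0.22 ± 0.98 (SD, n = 4; exact two-sided sign-flip test p = 0.75, adjusted p = 1 over 3 paralog pairs). With 4 arrays there are 16 sign patterns, so this exact test cannot reach p = 0.05.

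Srebf2, which encodes the SREBP that favours cholesterol genes, had log2 ratios of 0.37, 0.12, 0.21 and -0.25 on replicates 1 to 4. It was positive on 3 arrays and negative on replicate 4. The mean was 0.11 ± 0.26 (SD, n = 4), with a 95% interval of -0.13 to 0.35 and an unadjusted p = 0.271 in limma. It was 0.02 without replicate 2 and 0.21 without replicate 4. The dye term of Srebf2, 0.18, was larger than its mean (unadjusted p = 0.112 in limma). Its 4 spots disagreed in sign of their means, at -0.14, 0.07, 0.26 and 0.26, and the second was dim on 3 arrays. The fourth, with 0.49, 0.13, 0.67 and -0.25 on replicates 1 to 4, was the 1 member spot of 17 with an unadjusted p under 0.05, against 3.52% of all spots. Its unadjusted p was 0.0434 in limma, and it did not pass after adjustment over all spots, where 0% passed. The dye term of this spot, 0.32, was larger than its mean of 0.26 (unadjusted p = 0.0210 in limma). All 4 spots were positive on replicate 1 and negative on replicate 4.

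Srebf1, which encodes the SREBPs that favour fatty acid genes and is itself an LXR target, had log2 ratios of 0.54, -0.30, -0.02 and 0.21 on replicates 1 to 4. The arrays fell on both sides of 0. The mean was 0.11 ± 0.35 (SD, n = 4), with a 95% interval of -0.27 to 0.48, and it came from 1 spot that was never dim. It was -0.03 without replicate 1 and -0.02 without replicate 4. Srebf1 minus Srebf2 averaged -0.0057 ± 0.40 (SD, n = 4; exact sign-flip test p = 1, adjusted p = 1), with 0.17, -0.42, -0.23 and 0.47 on replicates 1 to 4.

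Scap, the escort and sterol sensor, had log2 ratios of -0.52, 0.15, 0.16 and -0.31 on replicates 1 to 4, from 1 never dim spot. Replicates 1 and 4 were low and replicates 2 and 3 were slightly high. The mean was -0.13 ± 0.34 (SD, n = 4), with a 95% interval of -0.54 to 0.27. It was 0.04 without replicate 1 and -0.30 without replicate 3. On replicate 1 Scap was at -0.52 where Insig1 was at 1.18.

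**Figure D2:**
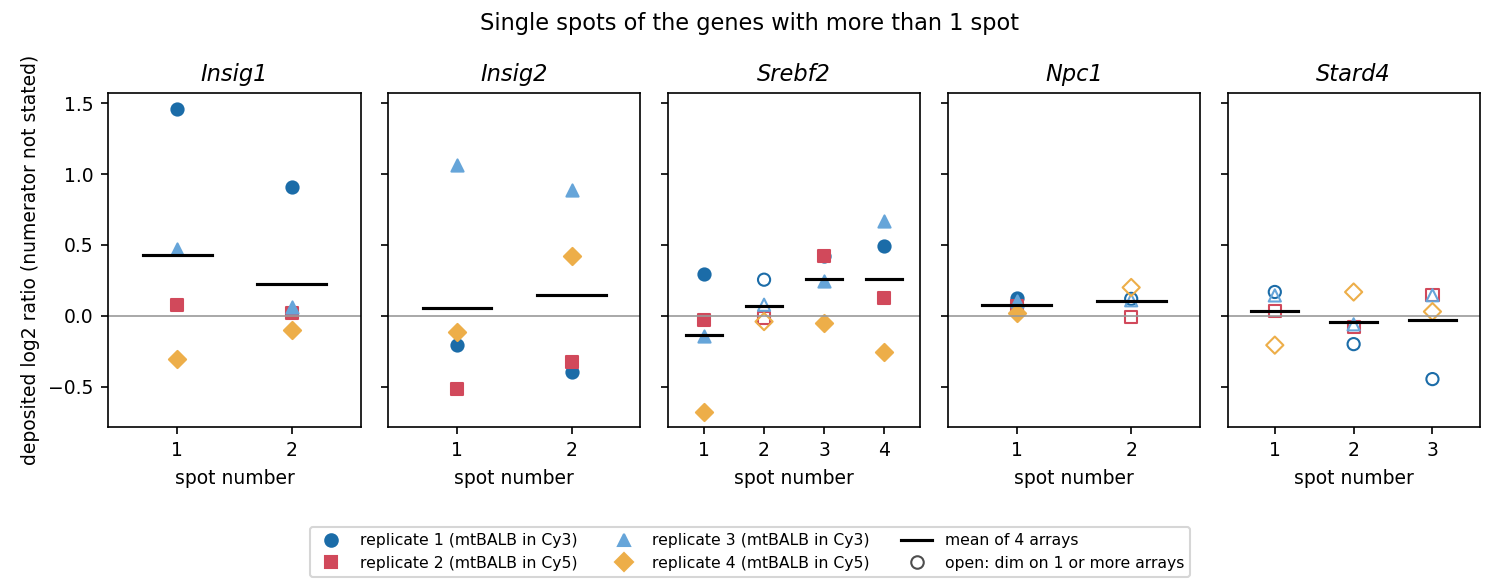
Deposited log2 ratio (vertical axis; numerator not stated) of each spot of the 5 genes with more than 1 spot. Symbols mark the arrays, open symbols spots that were dim on 1 or more arrays, and black bars the mean of 4 arrays. Both spots of Insig1 are highest on replicate 1 and both spots of Insig2 on replicate 3, while the spots of Npc1 stay near 0.

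The order of the arrays for Insig1 and Srebf2 was that of the enzymes of cholesterol synthesis, which SREBPs raise. The median log2 ratio of 17 measured enzyme genes was 0.96, 0.40, 0.43 and -0.20 on replicates 1 to 4. Their number above 0 was 16, 17, 17 and 3 on those arrays. Replicate 1 was the highest, then 3, then 2, then 4, an order shown by 9 of the 17 enzymes, by Insig1 and Srebf2, by 5.63% of all genes and by 5.24% of genes with a never dim spot. The other 7 members did not have this order. It was read from the medians of these same 17 enzymes, so their own share of it is no independent support. The medians of replicates 3 and 2, at 0.43 and 0.40, were nearly tied. This order also puts both arrays with mtBALB in Cy3 above both with mtBALB in Cy5, so it cannot be told apart from a split by dye. The dye term had an unadjusted p under 0.05 for 2 of the 17 enzymes, against 8.98% of all genes. All 17 enzymes had a positive mean, against 49.5% of all genes, with a list median of 0.33. At an unadjusted p under 0.05 there were 7 on the positive side, against 1.59% of all genes, and 0 on the negative side. None passed the adjusted threshold. The enzymes of smallest p were Cyp51, the sterol demethylase, at 0.68 ± 0.69, and Idi1, an isomerase of isoprenoid synthesis, at 0.89 ± 0.79 (SD, n = 4). Their dye terms were 0.49 and 0.48 (unadjusted p = 0.0430 and 0.106 in limma).

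**Figure D3:**
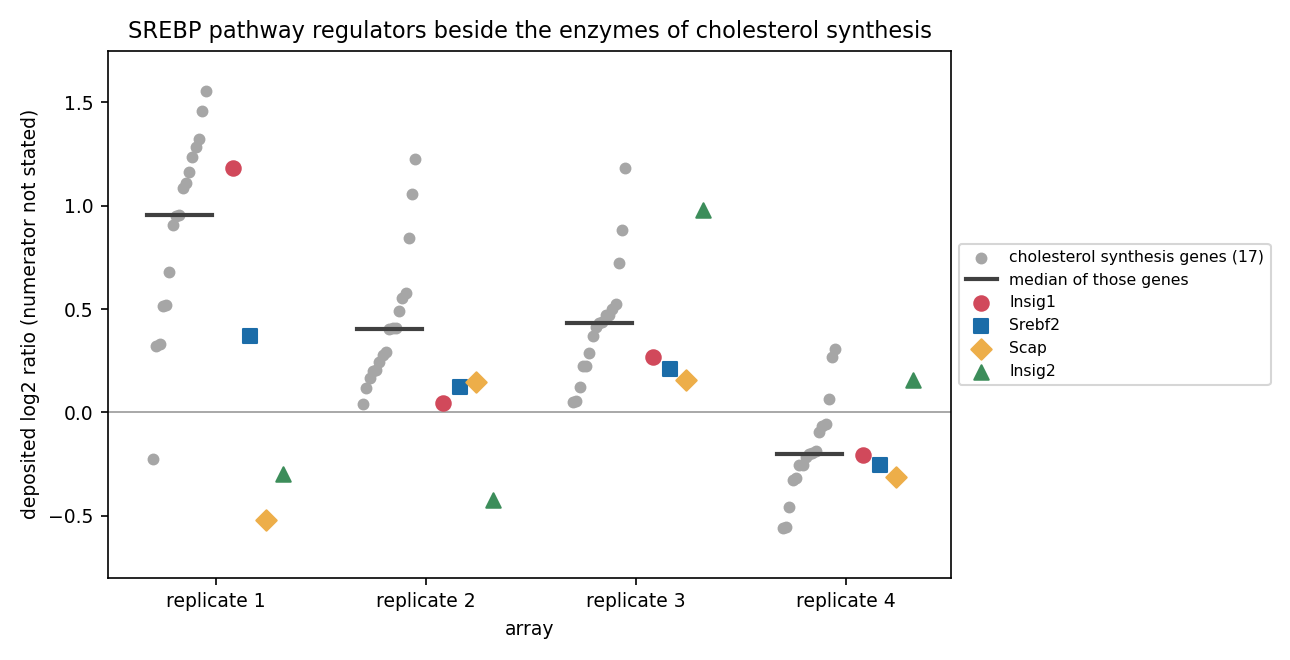
Deposited log2 ratio (vertical axis; numerator not stated) on each array. Grey points are the 17 cholesterol synthesis genes with their median as a bar, and coloured symbols are Insig1, Srebf2, Scap and Insig2. Insig1 and Srebf2 are highest on replicate 1 and below 0 on replicate 4, as the enzyme median is, and Insig2 is highest on replicate 3.

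The genes nearest to Insig1 also included an enzyme of the pathway. Over 4 arrays and among 9773 other genes with a never dim spot, the smallest Euclidean distances of log2 ratios were those of Scarb1, Agfg2 and Pmvk, at 0.20, 0.21 and 0.28. Scarb1, the receptor that takes cholesteryl ester from high-density lipoprotein, had 1.04, -0.08, 0.25 and -0.22 on replicates 1 to 4. Agfg2 had 1.01, 0.16, 0.22 and -0.25. Pmvk, phosphomevalonate kinase of cholesterol synthesis, had 0.96, 0.12, 0.23 and -0.07. All 3 were highest on replicate 1 and below 0 on replicate 4. They were chosen by likeness to Insig1 on these same arrays, so this shared pattern is no independent support.

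The fatty acid synthesis genes, which Srebf1 favours, were split between replicates 1 and 3 and replicates 2 and 4. These pairs of arrays differ in dye orientation and in how the deposited numbers were written, which cannot be told apart. If the ratios had not been turned to 1 direction, the split would be a difference between the lines. All 13 were positive on replicates 1 and 3, with mtBALB in Cy3, and 6 of 13 were positive on replicate 2 and on replicate 4, with mtBALB in Cy5. Their list median was 0.39, -0.0047, 0.32 and -0.02 on replicates 1 to 4, while Srebf1 was above 0 on replicates 1 and 4. All 13 means were positive, against 49.5% of all genes, and for 3 of them the unadjusted p was under 0.05, against 1.59% of all genes on that side. The dye term had an unadjusted p under 0.05 for 5 of the 13, against 8.98% of all genes. The elongase Elovl6 averaged 0.42 ± 0.12 and the desaturase Scd1 averaged 0.33 ± 0.61 (SD, n = 4). The dye term of Scd1, 0.52, was larger than its mean (unadjusted p = 8.07e-04, adjusted p = 0.545 in limma), and that of Elovl6 was -0.07. The order of arrays shown by Insig1 was that of 3 of the 13.

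The machinery that cleaves and degrades SREBPs and Insigs had no gene at an unadjusted p under 0.05 among 11 measured. Of these 3 had a positive and 8 a negative mean, with a list median of -0.04. The genes of smallest p were Rnf145, a ubiquitin ligase that acts on Scap, at -0.36 ± 0.42 with -0.76, -0.68, 0.05 and -0.05 on replicates 1 to 4, and Fbxw7, which targets nuclear SREBPs for degradation, at -0.20 ± 0.26 (SD, n = 4). Rnf145 was low on replicates 1 and 2 and near 0 on the others. Erlin1, an endoplasmic reticulum protein that binds the SREBP, Scap and Insig complex and was chosen after its values were seen, had -1.40, 0.25, 0.38 and -0.19.

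Npc1, which exports lipoprotein-derived cholesterol from lysosomes, was the most even of the members. Its log2 ratio was 0.12, 0.03, 0.10 and 0.11 on replicates 1 to 4. All arrays were slightly positive, at no more than a 1.09-fold ratio. The mean was 0.09 ± 0.04 (SD, n = 4), with a 95% interval of -0.06 to 0.25 and an unadjusted p = 0.178 in limma. The SD exceeded that of 0.675% of genes with a never dim spot. The interval is wider than the SD alone would give, because limma moves the variance of each gene towards that of all genes. One of its spots was never dim, with a mean of 0.08, and the other was dim on all 4 arrays, with a mean of 0.11.

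Stard4, a soluble carrier of cholesterol between membranes, had log2 ratios of -0.16, 0.03, 0.08 and -0.0036 on replicates 1 to 4. The mean was -0.01 ± 0.10 (SD, n = 4), with a 95% interval of -0.20 to 0.17. Its 3 spots were dim on 4, 4 and 3 arrays and shared a sign on 0 of 4 arrays, so these values say little of the transcript. Stard4 is an SREBP target in mouse, and on replicate 1 it was at -0.16 where the enzyme median was 0.96.

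Among 20 other genes of intracellular sterol transport, 9 had a positive and 11 a negative mean, with a list median of -0.0086. At an unadjusted p under 0.05 there were 2 on the positive side and 0 on the negative side, against 1.59% and 2.05% of all genes. These were Osbpl3, an oxysterol-binding protein homologue, at 0.34 ± 0.38, and the caveolar protein Cav1 at 0.32 ± 0.58 (SD, n = 4). Cav1 was at -0.41 on replicate 4, and its dye term of 0.46 was larger than its mean (unadjusted p = 0.0162 in limma). The list medians were -0.06, -0.08, 0.12 and -0.02 on replicates 1 to 4, so replicate 3 was the highest.

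Of the genes of lipoprotein uptake, 7 were measured, 4 with a positive and 3 with a negative mean, and the list median was 0.03. The endocytic receptor Lrp1 was the 1 gene at an unadjusted p under 0.05, on the negative side, against 2.05% of all genes. Its ratio was -0.28, -0.53, -0.04 and -0.31 on replicates 1 to 4, negative on every array, and averaged -0.29 ± 0.20 (SD, n = 4). The scavenger receptor Cd36 averaged 0.11 ± 0.05 on spots that were dim on 4 arrays.

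Abca1, which exports cholesterol to lipid-poor apolipoprotein, had the largest mean of the members in absolute size with the ratios as deposited. With the signs of replicates 2 and 4 turned its mean was 0.04 and that of Insig1, 0.40, was the largest. In the fit without replicate 2, every other member except Srebf2 and Stard4 had a mean term larger in size than that of Abca1. Abcg1 at 0.30 and Insig1 at 0.26 were the largest. This ranking is that of the fit with a dye term and need not hold for plain means of the arrays left. The log2 ratio of Abca1 was -1.17, -1.82, -0.03 and 0.45 on replicates 1 to 4, from 1 spot that was never dim. Replicates 1 and 2 were far below 0, the second at a 3.52-fold ratio, replicate 3 was near 0 and replicate 4 was above it. The mean was -0.64 ± 1.04 (SD, n = 4), with a 95% interval of -1.81 to 0.53 and an unadjusted p = 0.208 in limma. The SD exceeded that of 98.6% of genes with a never dim spot. Its dye term was 0.04, so the low arrays, 1 of each dye orientation, did not follow the dye. The mean was -0.36 without replicate 1, -0.08 without replicate 2, -0.93 without replicate 3 and -1.21 without replicate 4. Without replicate 4 its unadjusted p was 0.0251 in limma, and it did not pass the adjusted threshold.

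Abcg1, which exports cholesterol to high-density lipoprotein, had log2 ratios of 0.25, -0.52, -0.27 and 0.61 on replicates 1 to 4, from 1 spot that was dim on 2 arrays. The arrays were spread evenly around 0. The mean was 0.02 ± 0.51 (SD, n = 4), with a 95% interval of -0.57 to 0.60. It was 0.30 without replicate 2 and -0.27 without replicate 4. Abca1 minus Abcg1 was -1.41, -1.30, 0.25 and -0.17 on replicates 1 to 4, a mean of -0.66 ± 0.82 (SD, n = 4; exact sign-flip test p = 0.375, adjusted p = 1). Abca1 was the lower on 3 of 4 arrays, and on replicate 1 it was below 0 where Abcg1 was above.

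The genes nearest to Abca1 over 4 arrays were Serpinb6b, Ppfibp2 and Cd74, at Euclidean distances of 0.49, 0.58 and 0.60. Cd74, the invariant chain of MHC class II, had -1.13, -1.97, -0.11 and -0.13 on replicates 1 to 4. Serpinb6b, a serine protease inhibitor, had -0.88, -1.89, 0.37 and 0.41, and Ppfibp2 had -1.44, -2.05, -0.32 and 0.10. All 3 were far below 0 on replicates 1 and 2, as Abca1 was, which follows from their choice by likeness to it. Macrophages are known for high Abca1, and the median of 8 macrophage markers was -0.07, -0.06, 0.0059 and -0.07 on replicates 1 to 4. Of those markers 2 had a positive mean, and Lyz2, lysozyme, averaged -0.32 ± 0.19 and the adaptor Tyrobp averaged -0.11 ± 0.07 (SD, n = 4). Levels are not given by ratios, and the part of macrophages in the result was not tested. Only 3 of the 8 markers had a spot that was never dim, and the cultures are labelled as LMEB3 cybrids.

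Of 11 other measured genes of efflux and LXR signalling, 4 had a positive and 7 a negative mean, with a list median of -0.03 and array medians of 0.16, -0.02, 0.0012 and -0.10. At an unadjusted p under 0.05 there was 1, on the positive side, against 1.59% of all genes: Lpcat3, a phospholipid acyltransferase raised by LXR, with 0.38, 0.54, 0.70 and -0.10 on replicates 1 to 4 and a mean of 0.38 ± 0.34 (SD, n = 4). It was high on the arrays where Abca1 was low or near 0. In this list the dye term had an unadjusted p under 0.05 for 4 of 11 genes, against 8.98% of all genes. Apoe, an apolipoprotein that carries exported cholesterol, averaged -0.28 ± 0.37 over 10 spots, with 0.21, -0.28, -0.69 and -0.36. Of 4 measured genes of sterol esterification and ester hydrolysis, 2 had a positive and 2 a negative mean and none had an unadjusted p under 0.05, with a list median of -0.05. The lipase Cel averaged -0.11 ± 0.15 and the acyltransferase Lcat averaged 0.05 ± 0.09 (SD, n = 4), on spots that were dim on 1 and 4 arrays.

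**Figure D4:**
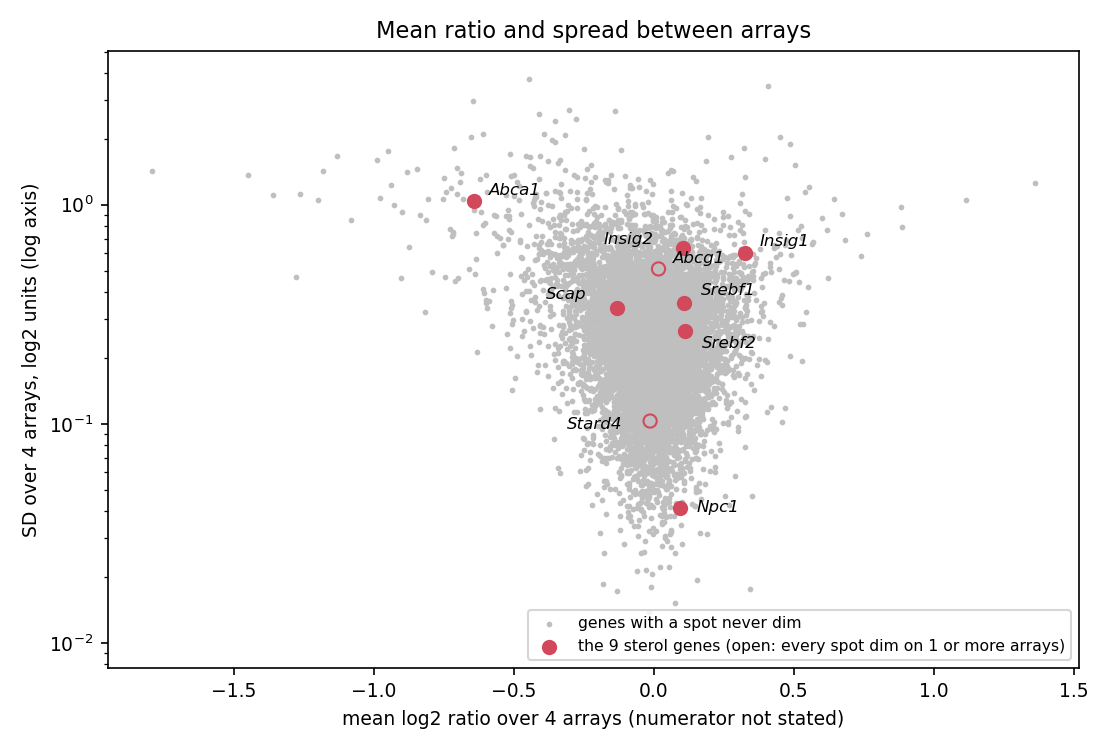
Mean log2 ratio over 4 arrays (horizontal axis; numerator not stated) against the SD over arrays (vertical log axis) for 9774 genes with a never dim spot (grey) and the 9 sterol genes (red; open where every spot was dim on 1 or more arrays). Abca1, Insig2 and Insig1 lie high in the cloud by SD and Npc1 lies near its lower edge.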

How the data were processed

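RNA of 4 pairs of mtBALB and mtB6 cultures was hybridised to 4 two-colour arrays. The authors deposited 1 log2 ratio per spot and array. Per the submitters' processing notes limma was used, with no version. The sources used here do not give the background correction, normalization, logarithm base or numerator. Base 2 was taken. Array medians lay between -0.0033 and 0.0051. Among 171 unlisted spots whose ratio was at least 0.6 in size on all arrays, 163 alternated in sign with the dye and 0 had 1 sign. Ratios were therefore taken as already turned to 1 direction, on the assumption that these spots are controls that follow the dye. Unlisted transcripts that differ between the lines would alternate too if the ratios had not been turned, so the count cannot decide this. In that case the mean and dye terms given here would change places.

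Symbols came from the platform annotation and were updated by gene ID from RefSeq (GRCm38.p6), which held 18966 of the 19088 genes. No name was given to 56 spots with several genes and 11511 with none. The fit used limma 3.58.1 in R 4.3.3 (lmFit, eBayes; mean ratio and dye term; 2 residual degrees of freedom), with Benjamini-Hochberg adjustment over all genes or all spots and a threshold of 0.05. It was tested on simulated data. Adjusted p-values here are limma's unless an exact test is named. The number of arrays limits the precision, and signal over background is unknown. Nothing says that replicates came from separate clones, so p-values measure the spread between these pairs. Members, lists and tests were chosen with earlier results of these data known. Always named are the members, the 2 genes of smallest p in each list, and the 3 genes nearest to the members of smallest p and of largest absolute mean. Array order, the motifs TCACCCCA and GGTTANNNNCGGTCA, and Erlin1 were taken up after the values or windows were seen. The closing section gives the effect of the alternatives.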

Additional observations from a re-analysis of the deposited data

Results flagged for a closer look

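By Dixon's criterion for 4 samples, no member had an array far from the others. Lyz2 had a log2 ratio of -0.613 on replicate 2, far below the other 3 arrays. The median of the macrophage markers was 0.0059 on replicate 3, above the other arrays, which lay between -0.07 and -0.06. These are 2 of 48 sets of 4 values, and chance marks about 1 in 20.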

How the results depend on the processing

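The count of genes past the adjusted threshold in limma stayed at 0, for the line difference in 10 alternatives and for the dye term in 9. Per spot it was 0, but 76 with the signs of replicates 2 and 4 turned. Turning those signs exchanges the mean ratio and the dye term of the fit. These 76 are therefore the spots whose dye term passed with the ratios as deposited. Genes at an unadjusted p under 0.05 numbered 694, and 1714 with those signs turned, 1579 without replicate 1 or 3, 426 without replicate 2, 270 on never dim spots and 0 with eBayes set to trend and robust, where the trend runs over the mean ratio itself. Members under that p were 0, or 1 without replicates 1, 3 or 4, and the smallest adjusted p of a member under any alternative was 0.464. Of 88 recomputed member means 11 changed sign, and those of Insig1, Srebf2 and Npc1 kept theirs throughout. Many of the 88 could not change. Leaving out the dye term or setting trend and robust gives the same mean by design. So does the median over spots for members of 1 or 2 spots, and the use of never dim spots where every spot was never dim. With signs turned, Abca1 had 0.044, Abcg1 -0.030, the member median was 0.044 and Abca1 minus Abcg1 was 0.073. With the median over spots, Stard4 had 0.0020. Leaving out 1 replicate gave -0.033 to 0.25 for Srebf1, -0.30 to 0.036 for Scap, -0.22 to 0.42 for Insig2, -0.072 to 0.046 for Stard4, -0.27 to 0.30 for Abcg1 and -0.017 to 0.11 for the member median. It gave -0.20 to 0.53 for Insig1 minus Insig2, -0.16 to 0.13 for Srebf1 minus Srebf2 and -0.96 to -0.41 for Abca1 minus Abcg1. For the gene means and the member median, the lone array of a dye orientation then sets that orientation. The paralog differences are plain means of the arrays left, without a dye term, so the 2 kinds of value are not alike. Stard4 and Abcg1 have no value on never dim spots. No paired analysis was possible because each ratio is already the difference within 1 pair: the fit on ratios is itself paired, and no further block could be added.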

Other observations

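Markers of the labelled cell type had no shared side: 6 of 12 fibroblast genes had a positive mean, with a list median of -0.0084. Col1a1, a collagen chain, averaged 1.11 ± 1.05 and Pdgfrb, a growth factor receptor, averaged -0.47 ± 0.27 (SD, n = 4). Of 7 adipocyte markers 5 had a positive mean, with a list median of 0.03, and Plin1 and Adipoq averaged 0.20 ± 0.11 and -0.07 ± 0.17 on dim spots. Of 7 hepatocyte markers 4 had a positive mean, with a list median of 0.0013, and Apoa1 and Cyp7a1 averaged 0.05 ± 0.24 and -0.04 ± 0.09 on dim spots. Of 12 interferon-stimulated genes 1 had a positive mean, with a list median of -0.30, and Ifit2 and Mx2 averaged -0.28 ± 0.36 and -0.65 ± 2.05 (SD, n = 4).

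The deposited numbers were written in 2 ways. More than 6 significant digits stood in 99.3% of the values of replicate 1 and 98.7% of those of replicate 3, which had mtBALB in Cy3. On replicates 2 and 4, with mtBALB in Cy5, 0% of the values had more than 6. How the 2 pairs of arrays were handled before deposit is not given in the sources used here.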
